A study of Mus musculus with 28 samples.

Results

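The genes described here are 29 mouse genes of cholesterol synthesis, sterol uptake and export, and sterol sensing. They were chosen by name, as the probes whose RefSeq accession maps to 1 of the listed genes, and all 29 were found, with 40 probes, among 20660 gene symbols on the array. Phenobarbital livers came from 3 male B6C3F1 mice that drank 0.05% phenobarbital for about 4 weeks, and control livers from 3 male B6C3F1 mice that drank water alone; the labels give an age of 42 days for both groups. All livers came from formalin-fixed, paraffin-embedded blocks that were 16 years old. Their whole-liver RNA was copied to cDNA, given a dye by a chemical coupling kit and measured on mouse expression arrays from Agilent. The same 6 mice were measured in 4 sets, each on 1 slide: 2 one-colour sets of 6 arrays, with a 1X and a 1.5X amount of cDNA, and 2 two-colour sets of 8 arrays with the same amounts, in which a phenobarbital and a control sample shared an array in Cy3 and Cy5. Phenobarbital is a sedative drug that hepatocytes sense through the constitutive androstane receptor, and here it was the exposure with which the handling of archival RNA was tried out.

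Cholesterol is made from acetyl-CoA by way of mevalonate, isoprenoid pyrophosphates, squalene and lanosterol. The liver makes much of the body's cholesterol and also exports it in lipoproteins and bile. When sterols in the endoplasmic reticulum run low, INSIG proteins let go of the carrier protein SCAP, which takes the precursor of the transcription factor SREBP2, the product of Srebf2, to the Golgi to be cut, and the freed SREBP2 switches on most enzymes of the pathway together. At promoters of these genes SREBP2 acts with the factors NF-Y and Sp1.

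The start-site windows of 5 genes whose values in every mouse are given below are shown, so that their matches to the motifs of SREBP2, NF-Y and Sp1 can be seen. RefSeq windows of assembly GRCm38.p6, from 250 bases before to 50 bases after a gene's start, were available for 24 of the 29 genes, in 31 windows; Fdps, Fdft1, Sqle, Stard4 and Npc1 had none. The windows are chr13:119690101-119690400 on the plus strand for Hmgcs1, and on the minus strand chr8:122443373-122443672 for Mvd, chr13:14063439-14063738 for Ggps1, chr8:64733529-64733828 for Msmo1 and chr1:169969156-169969455 for Hsd17b7. Capitals mark the sterol regulatory element TCACNCCAC and the NF-Y motif CCAAT, which reads ATTGG on the other strand.
Hmgcs1: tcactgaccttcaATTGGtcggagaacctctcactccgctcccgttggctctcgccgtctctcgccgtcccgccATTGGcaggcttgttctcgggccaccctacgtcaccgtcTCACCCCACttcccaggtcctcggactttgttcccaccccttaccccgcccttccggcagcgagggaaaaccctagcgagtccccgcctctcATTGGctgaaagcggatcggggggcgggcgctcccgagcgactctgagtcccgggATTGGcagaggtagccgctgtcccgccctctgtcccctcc
Mvd: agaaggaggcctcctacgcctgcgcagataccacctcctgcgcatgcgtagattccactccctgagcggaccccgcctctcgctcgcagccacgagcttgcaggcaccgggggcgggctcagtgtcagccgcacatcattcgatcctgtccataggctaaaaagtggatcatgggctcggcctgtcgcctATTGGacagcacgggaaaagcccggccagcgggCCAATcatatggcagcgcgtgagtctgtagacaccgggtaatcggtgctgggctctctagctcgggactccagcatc
Ggps1: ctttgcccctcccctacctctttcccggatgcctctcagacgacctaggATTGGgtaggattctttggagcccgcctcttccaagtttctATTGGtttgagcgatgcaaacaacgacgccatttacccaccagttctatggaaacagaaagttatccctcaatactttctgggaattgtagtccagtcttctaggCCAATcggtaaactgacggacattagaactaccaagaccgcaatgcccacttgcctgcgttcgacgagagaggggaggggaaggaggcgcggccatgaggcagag
Msmo1: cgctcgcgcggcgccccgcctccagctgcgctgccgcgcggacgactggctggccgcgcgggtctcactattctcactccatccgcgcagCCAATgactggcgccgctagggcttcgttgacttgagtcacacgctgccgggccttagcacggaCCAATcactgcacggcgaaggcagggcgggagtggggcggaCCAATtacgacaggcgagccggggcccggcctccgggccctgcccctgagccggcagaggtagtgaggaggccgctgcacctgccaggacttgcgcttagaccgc
Hsd17b7: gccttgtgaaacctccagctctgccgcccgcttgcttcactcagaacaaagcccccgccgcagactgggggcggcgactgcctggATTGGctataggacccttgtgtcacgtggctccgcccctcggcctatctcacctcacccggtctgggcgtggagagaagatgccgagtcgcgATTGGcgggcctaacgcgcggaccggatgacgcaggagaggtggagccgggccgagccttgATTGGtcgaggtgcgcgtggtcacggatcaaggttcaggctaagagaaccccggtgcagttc
The sterol regulatory element, searched on both strands, was in 1 of the 31 windows, that of Hmgcs1, where it starts at base -137 from the start site, and in 1.24% of all 32851 windows in the table. CCAAT, searched on both strands, was in 22 of the 31 windows, or 71%, and in 37.4% of all windows. The Sp1 motif GGGCGG, also searched on both strands, was in 22 of the 31 windows, or 71%, and in 35.7% of all windows. Matches of different motifs did not overlap in any of the 31 windows. Hmgcs1 held 4 CCAAT motifs, Ggps1, Msmo1 and Hsd17b7 held 3 each, and Mvd held 2; Mvd, Ggps1, Msmo1 and Hsd17b7 held no sterol regulatory element of these letters, and Ggps1 no GGGCGG. A match describes these letters only.

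A one-colour value below is the log2 signal of a probe minus its array's 75th percentile, so that 0 is the level of a bright probe of that array, and values of different probes are not set against each other. The exposure labels were checked with Cyp2b10, a cytochrome P450 gene that the constitutive androstane receptor switches on. On the one-colour 1X arrays its log2 signal was 0.08 to 0.78 in phenobarbital livers, well above background on 3 of 3 arrays, and -6.16 to -5.29 in control livers, well above background on 0 of 3. Hepatocyte markers matched the tissue label, since all 9 named on the array, albumin and apolipoproteins among them, were well above background on all 12 one-colour arrays; their summed log2 level was 8.91 to 9.31 in phenobarbital livers and 9.05 to 9.23 in control livers. Genes of the exocrine pancreas were also bright, with 10 of 13 well above background on all 12 arrays, and their summed log2 level was 6.49 to 9.03 in phenobarbital livers and 7.12 to 9.08 in control livers. Over both inputs 0 of 11 pancreas genes tested had a log2 fold change above 0, with a median of -0.96, and on two-colour 1X arrays 0 of 10 did, with a median of -0.91. Neutrophil markers were dim, 0 of 5 being well above background on all 12 arrays, and summed to -2.68 to -0.83 in phenobarbital livers and -3.66 to -3.04 in control livers; S100a8 and Mpo were above background on no array. Kupffer cell and macrophage markers, 8 of 10 of them well above background on all 12 arrays, summed to 2.55 to 3 in phenobarbital livers and 2.27 to 2.54 in control livers. The part of these other cells in the results below was not tested, and in whole liver a change in the number of cells of a type and a change in RNA per cell cannot be told apart. The share of probes well above background had a median of 47.7% at one-colour 1X and 32.7% at one-colour 1.5X. In the two-colour sets it was 26.1% in Cy3 and 20.2% in Cy5 at 1X, and 40.2% in Cy3 and 4.06% in Cy5 at 1.5X.

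Over both one-colour inputs the largest positive differences in phenobarbital livers were those of Hmgcs1 at 2.07-fold, Sqle at 1.98-fold and Msmo1 at 1.78-fold, and the largest negative ones those of Ggps1, Acat2, Pmvk and Ebp. Hmgcs1 was the 1 gene of the 29 that passed the test under both ways of numbering the mice, on the two-colour 1X arrays. Over the mean of both one-colour inputs no gene of the 29 passed an adjusted p of 0.05 by limma, against 0.75% of the 12808 genes tested there. Of the 28 genes tested (all but Npc1l1), 20 had a log2 fold change above 0, with a median of 0.17, against a median of -0.02 and 47% above 0 over all genes tested. In 9 of the 28 genes the 3 phenobarbital mice all lay above the 3 control mice, and 9.06% of all genes tested did so; Cyp51, 1 of the 9, entered the test through the phenobarbital group alone, being well above background on 6 of 6 phenobarbital and 3 of 6 control arrays. In 3 of the 28, Ggps1, Acat2 and Ebp, the 3 phenobarbital mice all lay below the 3 control mice, as did 9.89% of all genes. Taken alone, neither one-colour set gave a call among the 29 genes: 0 of 29 passed at 1X, where 0.161% of 18640 genes passed, and 0 of 28 passed at 1.5X, where 0.237% of 13081 genes passed. At an unadjusted p under 0.05 the count was 10 of 28 over both inputs, 7 of 29 at 1X and 9 of 28 at 1.5X, against 13.5%, 8.58% and 15% of all genes tested. The median of the 28 genes was -0.04 without scaling between arrays, and that of all genes then -0.23.

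**Figure D1:**
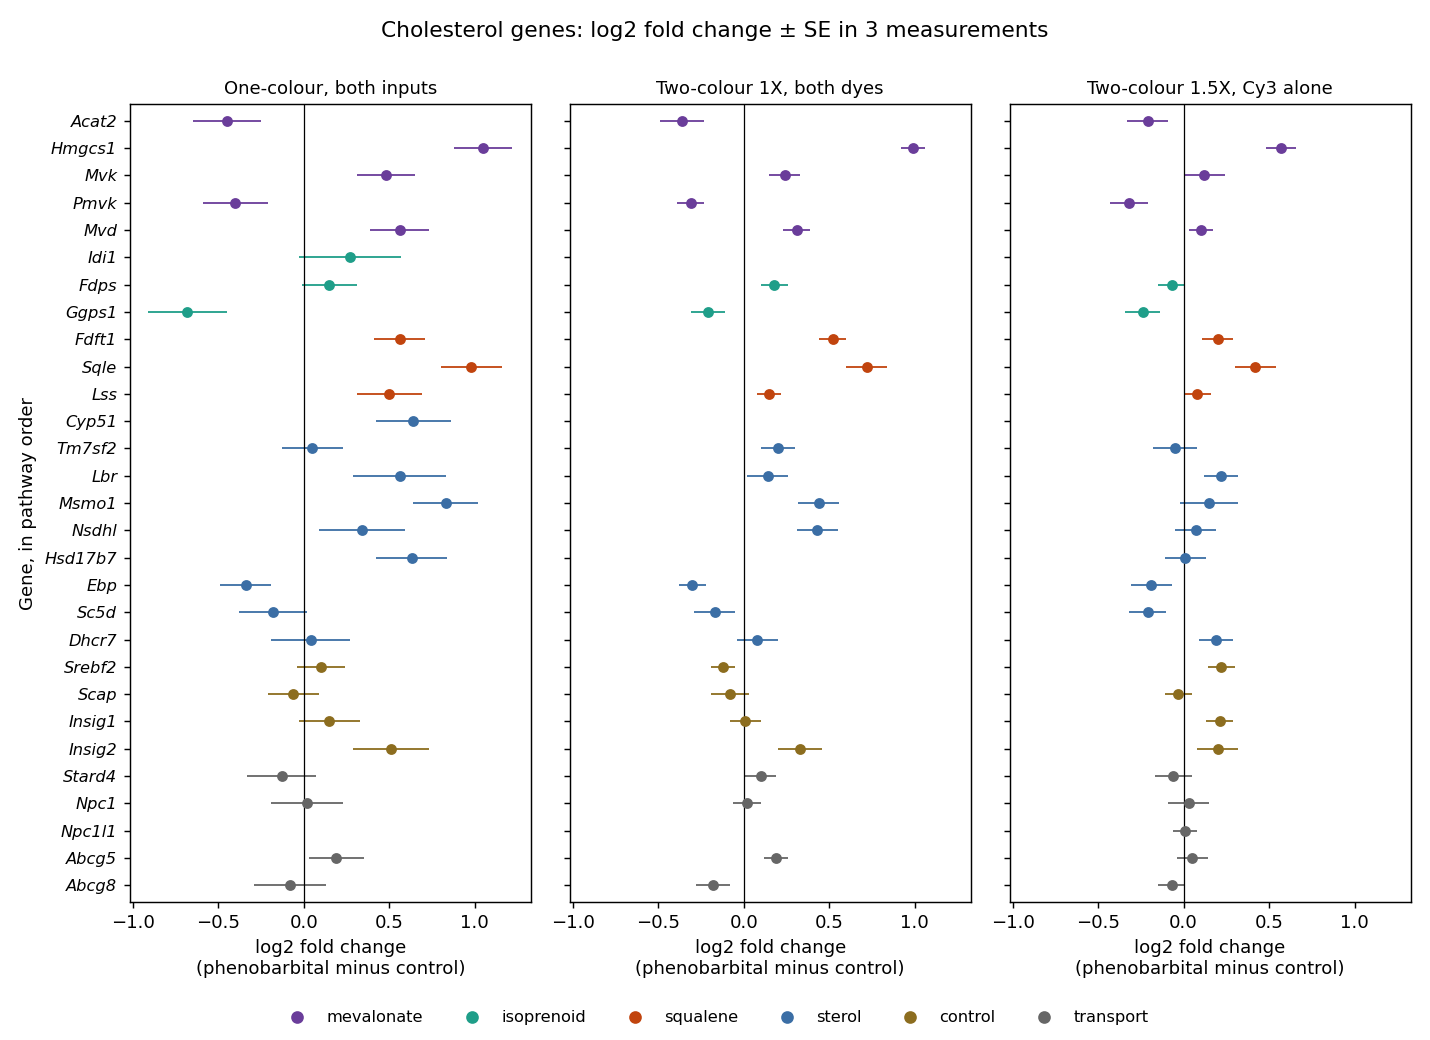
Log2 fold change, phenobarbital minus control, for each of the 29 genes in pathway order, as points with bars of 1 SE (3 mice per group), over both one-colour inputs, on two-colour 1X arrays and in Cy3 of the two-colour 1.5X arrays; colours mark the step and genes not tested have no point. Bars of the two-colour 1X panel use the mouse numbers of the sample descriptions. Hmgcs1 has the highest point in all 3 panels, at 1.05, 0.99 and 0.57, and Acat2, Pmvk, Ggps1, Ebp, Sc5d, Scap and Abcg8 are below 0 in all 3.

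The mevalonate steps turn acetyl-CoA into mevalonate and activate it. Hmgcs1, which makes the HMG-CoA from which mevalonate is formed, had log2 signals of 2.31, 2.01 and 1.86 in phenobarbital mice and 1.23, 1.01 and 0.58 in control mice at one-colour 1X. At 1.5X it had 1.77, 1.56 and 1.56 in phenobarbital mice and 0.71, 0.76 and 0.5 in control mice. Every phenobarbital mouse lay above every control mouse at both inputs. Averaged over inputs, Hmgcs1 was 1.85 ± 0.17 in phenobarbital mice and 0.8 ± 0.23 in control mice (SD, n = 3 each), a log2 fold change of 1.05 (SE 0.17) or 2.07-fold, with a limma adjusted p of 0.051. Mvd, which makes isopentenyl pyrophosphate from activated mevalonate, had -1.12, -1.11 and -0.96 in phenobarbital mice and -1.27, -1.5 and -1.92 in control mice at 1X. At 1.5X Mvd had -2.1, -2.06 and -1.69 in phenobarbital mice and -2.42, -2.81 and -2.52 in control mice. The groups did not overlap at either input, and the log2 fold change over both was 0.56 (SE 0.17, limma adjusted p 0.208). Mvk, which phosphorylates mevalonate, had a log2 fold change of 0.48 (SE 0.17), again with no overlap. The remaining mevalonate enzymes had values below 0: Acat2, which joins acetyl-CoA units at the start, had a log2 fold change of -0.45 (SE 0.20), and Pmvk, which acts between Mvk and Mvd, one of -0.40 (SE 0.19). Neither passed, with limma adjusted p of 0.38 and 0.403.

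The isoprenoid steps make the branch point farnesyl pyrophosphate and the geranylgeranyl chain used to anchor proteins. Ggps1, which makes the geranylgeranyl chain and so leads away from sterols, had the lowest log2 fold change of the 28 genes, -0.68 (SE 0.23, limma adjusted p 0.258). Its log2 signal at 1X was -2.52, -2.89 and -2.99 in phenobarbital mice and -1.61, -1.85 and -2.28 in control mice. At 1.5X it was -2.26, -2.79 and -2.75 in phenobarbital mice and -1.66, -2.27 and -2.44 in control mice. The groups were apart at 1X and overlapped at 1.5X, where phenobarbital mouse 1 lay within the control range. Fdps, which makes farnesyl pyrophosphate, had a log2 fold change of 0.15 (SE 0.16), and Idi1, which interconverts the isoprenoid building blocks, one of 0.27 (SE 0.30). Idi1 was dim, with 1 phenobarbital array of 6 not well above background.

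The squalene steps commit carbon to sterols. All 3 enzymes had positive log2 fold changes over both inputs, with a median of 0.56, against 47% of all genes tested above 0. In all 3 the phenobarbital mice lay above the control mice, as in 9.06% of all genes tested. The 3 genes were measured in the same mice and are not replicates of each other. Sqle, the squalene epoxidase that limits this stretch, had 1.99, 2.32 and 2.29 in phenobarbital mice and 1.29, 1.13 and 1.05 in control mice at 1X. At 1.5X Sqle had 1.42, 1.81 and 2.07 in phenobarbital mice and 1.04, 0.74 and 0.73 in control mice. Its phenobarbital values were above all control values at both inputs. The mean over inputs was 1.98 ± 0.25 in phenobarbital mice and 1 ± 0.15 in control mice (SD, n = 3 each), a log2 fold change of 0.98 (SE 0.18) or 1.98-fold, with a limma adjusted p of 0.0621. Fdft1, squalene synthase, had 0.67, 0.61 and 0.49 in phenobarbital mice and 0.14, 0.5 and 0.08 in control mice at 1X. At 1.5X Fdft1 had -0.04, 0.06 and -0.13 in phenobarbital mice and -0.95, -0.61 and -0.83 in control mice. Phenobarbital mouse 3 was just below control mouse 2 at 1X, and the groups were apart at 1.5X; the log2 fold change over both inputs was 0.56 (SE 0.15, limma adjusted p 0.19). Lss, which closes the sterol rings to give lanosterol, had a log2 fold change of 0.50 (SE 0.19, limma adjusted p 0.321).

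**Figure D2:**
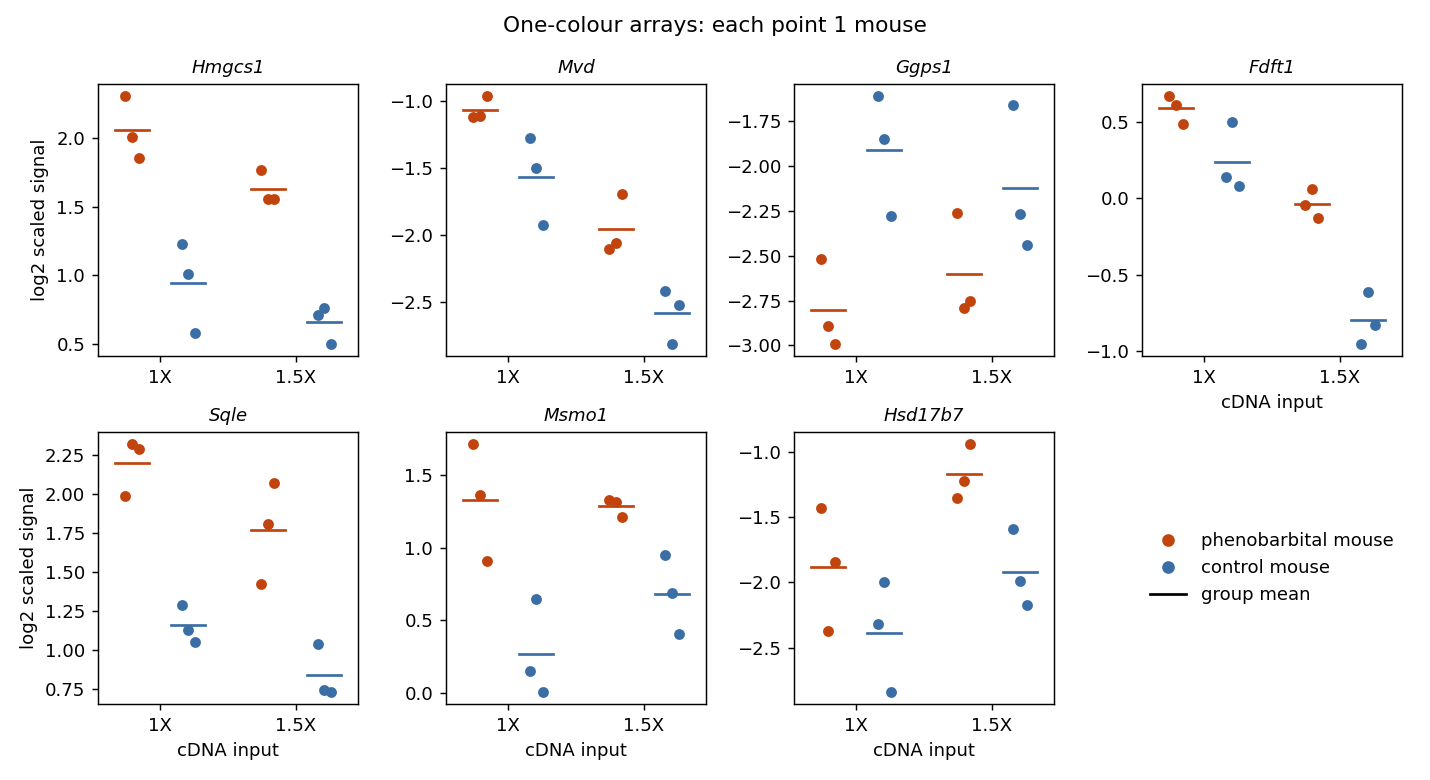
One-colour log2 scaled signal (0 is the array's 75th percentile) of 7 genes at 1X and 1.5X input, each point 1 mouse and each bar a group mean, phenobarbital left of control. Phenobarbital points of Hmgcs1, Sqle and Mvd are all above the control points at both inputs, and Ggps1 is the gene with phenobarbital means below control, at -2.8 in phenobarbital mice and -1.91 in control mice for 1X.

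The sterol steps strip methyl groups from lanosterol and move double bonds. Of 9 genes, 7 had a log2 fold change above 0 over both inputs, with a median of 0.34, against 47% of all genes tested above 0. Msmo1, the C4-methyl oxidase, had 1.71, 1.36 and 0.91 in phenobarbital mice and 0.15, 0.65 and 0.01 in control mice at 1X. At 1.5X Msmo1 had 1.33, 1.31 and 1.21 in phenobarbital mice and 0.95, 0.69 and 0.41 in control mice. The groups were apart at both inputs, and the log2 fold change was 0.83 (SE 0.19) or 1.78-fold, with a limma adjusted p of 0.121. Hsd17b7, the keto-reductase of the same demethylation, had -1.43, -2.37 and -1.84 in phenobarbital mice and -2.32, -2 and -2.84 in control mice at 1X. At 1.5X Hsd17b7 had -1.35, -1.22 and -0.94 in phenobarbital mice and -1.59, -1.99 and -2.17 in control mice. It overlapped at 1X, where phenobarbital mouse 2 lay low, and not at 1.5X, and the log2 fold change over both was 0.63 (SE 0.21, limma adjusted p 0.25). Cyp51, the lanosterol demethylase, had 0.64 (SE 0.22), but while 6 of 6 phenobarbital arrays held it well above background, only 3 of 6 control arrays did. Lbr, a nuclear envelope protein that also reduces the C14 double bond, had a log2 fold change of 0.56 (SE 0.27), and Tm7sf2, the other enzyme with that activity, one of 0.05 (SE 0.18). Nsdhl, the sterol dehydrogenase of the demethylation, had 0.34 (SE 0.25). The late enzymes had values near or below 0: Ebp, the sterol isomerase, had a log2 fold change of -0.34 (SE 0.15) with the phenobarbital mice all below the control mice, Sc5d, the desaturase after it, had -0.18 (SE 0.20), and Dhcr7, the last reductase, had 0.04 (SE 0.23).

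Sterol sensing and transport genes were mostly near 0. Srebf2 had a log2 fold change of 0.10 (SE 0.14), Scap one of -0.06 (SE 0.15) and Insig1, the sterol-regulated anchor, one of 0.15 (SE 0.18). Without scaling between arrays Srebf2, Insig1, Fdps, Tm7sf2, Dhcr7, Npc1 and Abcg5 were below 0, at -0.20 to -0.02, while the median of all genes moved to -0.23. Insig2, the second anchor, had the highest of the 4, at 0.51 (SE 0.22, limma adjusted p 0.38). Its log2 signals over both inputs were 0.91, 0.98 and 0.49 in phenobarbital mice and 0.54, 0.41 and -0.1 in control mice, and the groups overlapped by 1 phenobarbital mouse. The transport genes had a median of -0.03 over 4 tested: Stard4, a cytosolic sterol carrier, had -0.13 (SE 0.20), Npc1, which exports cholesterol from lysosomes, had 0.02 (SE 0.21), and Abcg5 and Abcg8, which together form the biliary sterol exporter, had 0.19 (SE 0.16) and -0.08 (SE 0.21). Npc1l1, the intestinal sterol importer, which mouse liver expresses little, was well above background on all arrays only at 1X. There it had -2.46, -2.93 and -2.77 in phenobarbital mice and -3.84, -3.58 and -3.05 in control mice, a log2 fold change of 0.77 (SE 0.26, limma adjusted p 0.466); at 1.5X it was well above background on 1 of 3 phenobarbital arrays and 0 of 3 control arrays.

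Of the 29 genes, 11 had a second probe, and for 8 of these it was bright enough to be tested (not for Fdft1, Nsdhl and Stard4). Over both one-colour inputs 7 of the 8 had the same sign with both probes, Tm7sf2 being the exception at 0.05 and -0.01. Hsd17b7 had log2 fold changes of 0.63 with the brighter probe and 0.61 with the other, Insig2 had 0.51 and 0.78, and Mvk had 0.48 and 0.3. The negative values of Ggps1, -0.68 and -0.39, and of Pmvk, -0.4 and -0.15, had the same sign with both probes. Lbr differed most among the 8 genes with both probes tested, at 0.56 and 0.18.

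On the two-colour 1X arrays, with their own background correction and normalization, the spread was smaller and there were more calls. Cyp2b10 had a log2 fold change of 1.72 there and 5.98 on one-colour 1X arrays. How far the format and the processing each set this scale was not tested. Hmgcs1, Fdft1 and Sqle were higher in phenobarbital livers by limma when mice were numbered by the sample descriptions, with 3 of 25 genes called against 6.17% of 8256 genes tested. Their log2 fold changes were 0.99 (SE 0.07, limma adjusted p 0.000368), 0.52 (SE 0.08, limma adjusted p 0.00973) and 0.72 (SE 0.12, limma adjusted p 0.013). On 4 of the arrays the channel source names give other mouse numbers, which leave the fold changes as they are and alter the spread. With the source-name numbers the SE was 0.12 for Hmgcs1, 0.1 for Fdft1 and 0.17 for Sqle. With those numbers 1.21% of 8256 genes passed, and of the 3 only Hmgcs1 did, at a limma adjusted p of 0.0117, against 0.0568 for Fdft1 and 0.0981 for Sqle. Over 8231 other genes, all 4 channels that carry 2 numbers followed the one-colour 1X deviations of the source-name mouse (r 0.18 to 0.61) and not of the description mouse (r -0.31 to -0.06). Arrays 4 and 8 were left out because their labels give each exposure opposite dyes. Idi1, Cyp51, Hsd17b7 and Npc1l1 were too dim to be tested.

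Read 1 dye at a time, each two-colour value is 1 channel of 1 array, and the numbering does not enter. In Cy3 at 1X, Hmgcs1 had 9.71, 9.84 and 10.05 in phenobarbital channels and 8.67, 8.85 and 8.91 in control channels, on a log2 scale of normalized signal. In Cy5 it had 9.74, 9.85 and 9.98 in phenobarbital channels and 8.79, 8.9 and 9.13 in control channels. With either dye the groups were well apart, and Hmgcs1 passed in each, with a log2 fold change of 1.06 (SE 0.13, limma adjusted p 0.0117) in Cy3 and 0.92 (SE 0.13, limma adjusted p 0.0293) in Cy5. It was the 1 gene of 26 called in either dye, where 1.32% of genes passed in Cy3 and 0.332% in Cy5. Sqle had 9.6, 9.92 and 10.17 in phenobarbital and 8.88, 9.07 and 9.36 in control Cy3 channels, and 9.53, 10 and 10.06 in phenobarbital and 8.97, 9.31 and 9.36 in control Cy5 channels. Fdft1 had 8.35, 8.48 and 8.52 in phenobarbital and 7.67, 7.96 and 7.99 in control Cy3 channels, and 8.17, 8.28 and 8.33 in phenobarbital and 7.64, 7.88 and 7.89 in control Cy5 channels. Both genes were apart in both dyes, and their limma adjusted p was 0.0622 and 0.0646 in Cy3 alone and 0.22 and 0.228 in Cy5 alone. Msmo1 was apart in both dyes too, with log2 fold changes of 0.5 (SE 0.15) in Cy3 and 0.38 (SE 0.14) in Cy5. In Cy3 8 of the 26 genes had all phenobarbital values above all control values, against 10.4% of all genes tested, and 2, Acat2 and Ggps1, had all below, against 8.57%. In Cy5 5 of the 26 genes had all phenobarbital values above all control values, against 7.96% of all genes tested, and 0 had all below, against 8.07%; Acat2 and Ggps1 overlapped there, and Ggps1 was well above background on 0 of 3 phenobarbital channels. The median of the 26 genes was 0.14 in Cy3, against 0.01 over all genes tested, and 0.1 in Cy5, against -0.01.

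**Figure D3:**
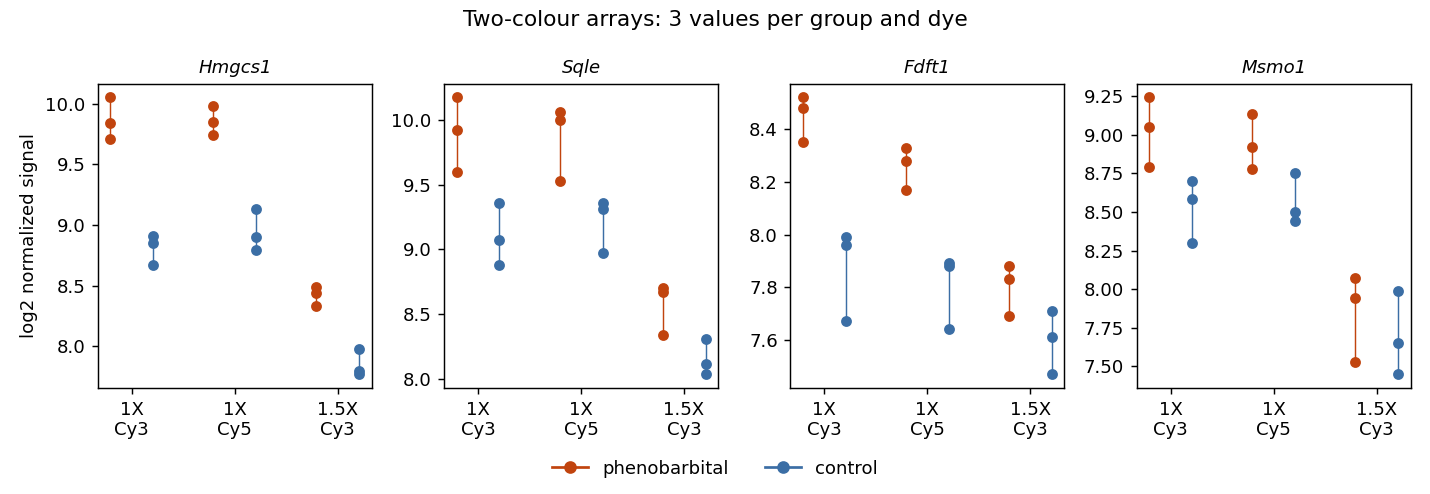
Log2 normalized two-colour signal of Hmgcs1, Sqle, Fdft1 and Msmo1 in Cy3 and Cy5 at 1X and in Cy3 at 1.5X (Cy5 at 1.5X was too dim to test and is not drawn), each point 1 mouse's channel (at 1.5X 2 arrays of 1 pair of samples averaged) and lines joining the 3 of a group, phenobarbital left of control. At 1X no phenobarbital point falls to the level of a control point for any of the 4 genes, and in Cy3 at 1.5X Fdft1 and Msmo1 overlap.

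The other genes on the two-colour 1X arrays are measured in RNA of the same mice, controls included, and are not independent of the one-colour values. Mvd had a log2 fold change of 0.31 (SE 0.08), Mvk one of 0.24 (SE 0.09), Msmo1 one of 0.44 (SE 0.12) and Nsdhl one of 0.43 (SE 0.12). Acat2 had -0.36 (SE 0.13), Pmvk -0.31 (SE 0.08), Ebp -0.30 (SE 0.08) and Ggps1 -0.21 (SE 0.10). These SEs use the descriptions' mouse numbers. By the source names the SE was 0.11 for Mvd, 0.12 for Mvk, 0.14 for Msmo1 and 0.13 for Nsdhl. It was 0.15 for Acat2 and for Pmvk, 0.13 for Ebp and 0.12 for Ggps1. Ggps1 was well above background on 3 of 6 phenobarbital and 6 of 6 control channels, and so was tested through the control group alone; Lss and Lbr were so too, with 4 of 6 phenobarbital and 6 of 6 control channels. Mvd, Mvk, Msmo1, Nsdhl, Acat2, Pmvk, Ebp and Ggps1 did not pass. Their limma adjusted p was 0.054 to 0.253 by the descriptions and 0.185 to 0.479 by the source names. Lss and Lbr did not pass either, with limma adjusted p of 0.258 and 0.513 by the descriptions and 0.598 and 0.686 by the source names. Srebf2 had -0.12 (SE 0.07), Scap -0.08 (SE 0.11), Insig1 0.01 (SE 0.09) and Insig2 0.33 (SE 0.13). Their SEs by the source names were 0.13, 0.13, 0.14 and 0.18. With the authors' deposited log ratios, which differ in background correction and normalization, Mvd had 0.79, Ggps1 had -0.56 and Hmgcs1 had 1.1; which of these choices moved the values was not tested.

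The two-colour 1.5X arrays were dim in Cy5, and with both dyes required only Pmvk and Ebp could be tested; neither was called, and 0% of 1663 genes were, while the log2 fold changes were -0.16 and -0.07. In Cy3 alone 27 genes were tested and limma called 0, against 0.0962% of 15589 genes; 6 of the 27 had an unadjusted p under 0.05, against 7.47% of all genes. Hmgcs1 had 8.33, 8.44 and 8.49 in phenobarbital and 7.77, 7.8 and 7.98 in control Cy3 channels, with no overlap and a log2 fold change of 0.57 (SE 0.09, limma adjusted p 0.107). Its Cy5 values at 1.5X overlapped, at 7.8 to 8.29 in phenobarbital and 8.08 to 8.34 in control channels, but it was well above background on 3 of 4 phenobarbital and 0 of 4 control channels and was not tested there. Sqle had 8.34, 8.67 and 8.7 in phenobarbital and 8.04, 8.12 and 8.31 in control Cy3 channels, a log2 fold change of 0.42 (SE 0.12, limma adjusted p 0.471), and its Cy5 values, 8.15 to 8.37 in phenobarbital and 8.07 to 8.25 in control channels, overlapped. With both dyes averaged, the mean of Hmgcs1 was 8.22 in phenobarbital mice and 8.03 in control mice, and that of Sqle 8.41 in phenobarbital mice and 8.17 in control mice, untested. In 4 of the 27 genes, Hmgcs1, Sqle, Srebf2 and Insig1, all phenobarbital values lay above all control values, against 6.07% of all genes tested. In 2, Pmvk and Ggps1, all lay below, against 6.63%; Ggps1 entered that test through the control group alone, being well above background on 3 of 4 phenobarbital and 4 of 4 control channels. The median of the 27 genes was 0.05, against -0.01 over all genes.

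The size of the phenobarbital difference was compared between inputs within the same mice, and between formats by mouse number. The 1.5X difference minus the 1X difference on one-colour arrays passed for 0 of 28 genes by limma, and 0% of 12808 genes passed. At an unadjusted p of 0.05 only Srebf2 was below the limit, with -0.48 (SE 0.20, limma adjusted p 0.863): its log2 fold change was -0.14 at 1.5X and 0.34 at 1X. The two-colour difference minus the one-colour difference at 1X passed for 0 of 25 genes, against 0.0242% of 8255 genes. For Hmgcs1 it was -0.14 (SE 0.22), for Sqle -0.32 (SE 0.18) and for Fdft1 0.17 (SE 0.16). Srebf2 (-0.46), Ggps1 (0.68) and Msmo1 (-0.62) had an unadjusted p under 0.05 there and an adjusted p of 0.997. The format test uses the descriptions' mouse numbers, although 4 two-colour channels followed the source-name mouse, so it may not match each mouse with itself. It was not run with the source-name numbers. The formats also differ in background correction and normalization, which this test cannot tell apart from the format.

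Neighbouring pathways gave other values. Genes of fatty acid synthesis, many of which the related factor SREBP1 switches on, had a median log2 fold change of -0.50 over both one-colour inputs, with 3 of 14 above 0 and none called. Acly, which makes cytosolic acetyl-CoA from citrate, had -0.83 (SE 0.20, limma adjusted p 0.143), Scd1, the stearoyl-CoA desaturase, had -0.92 (SE 0.31, limma adjusted p 0.264) and Fasn, fatty acid synthase, had -0.80 (SE 0.25, limma adjusted p 0.232). On the two-colour 1X arrays the list's median was -0.18, with 4 of 10 above 0. There 2 of 10 passed, against 6.17% of all genes: Acly and Scd1 were lower in phenobarbital livers, with limma adjusted p of 0.00814 and 0.0474. With the source-name mice neither passed, at 0.0862 and 0.242, and 1.21% of all genes did. Genes of other sterol handling, such as lysosomal lipase and the sterol acyltransferase, had a median of -0.15 over 22 tested, with 0 called over both one-colour inputs. On the two-colour 1X arrays 1 of 16 passed, against 6.17% of all genes, a share near the background: Scarb1, the HDL receptor, at -0.34 (SE 0.07, limma adjusted p 0.0339, or 0.184 with the source-name mice). Genes of the other isoprenoid branches, which make dolichol, ubiquinone and prenylated proteins, had a median of -0.22 over 8 tested with 0 called. The genes of these lists are background for the 29 and were not compared with them by a test.

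**Figure D4:**
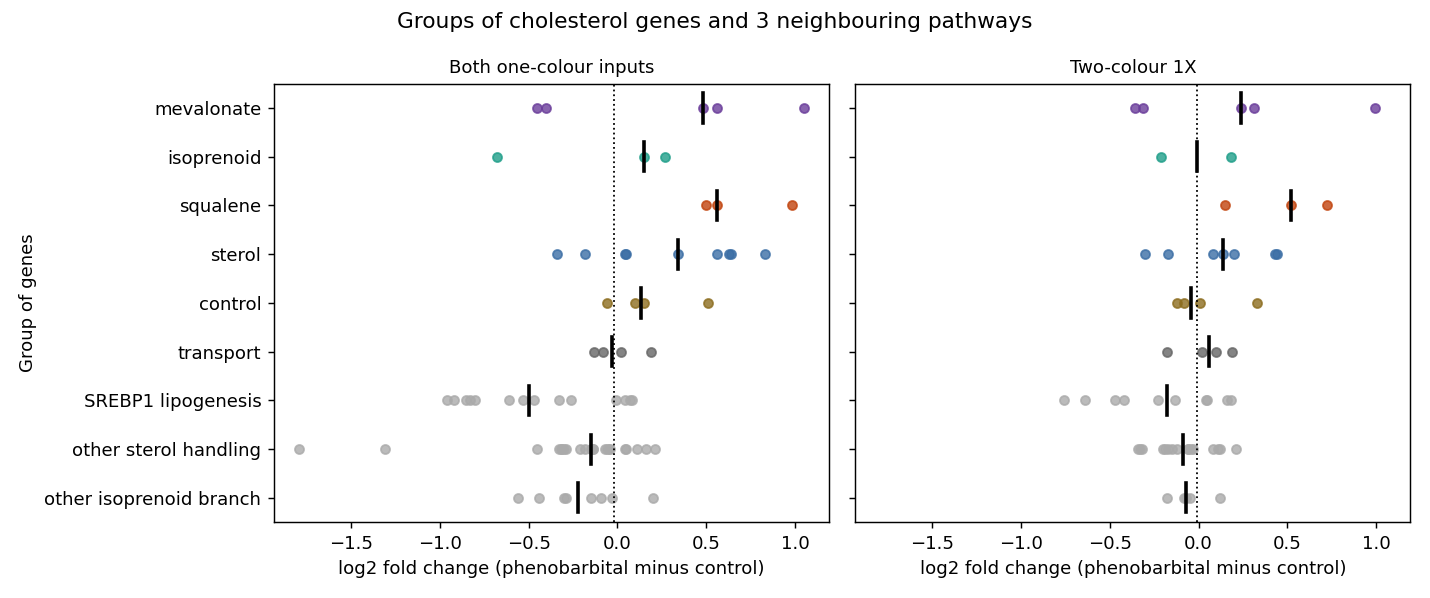
Log2 fold change, phenobarbital minus control, of each gene tested (points) in 6 groups of the 29 genes and in 3 neighbouring pathways (grey), over both one-colour inputs and on two-colour 1X arrays; black bars are medians and the dotted line is the median of all genes tested. The squalene group has the highest median in both panels, 0.56 and 0.52, and fatty acid synthesis the lowest, -0.5 and -0.18.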

How the data were processed

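Spots were quantified by the authors in Agilent software (Feature Extraction 11.0.1.1). The deposited tables, per the file headers, hold an intensity per spot, log10 ratios of Cy5 over Cy3 on two-colour arrays and spot flags of 0 or 1. Probes were named through RefSeq accessions, spots of a probe were averaged, and each gene used its brightest one-colour probe. One-colour values were log2 processed signals scaled to the 75th percentile of those probes of an array that were called well above background throughout its set. Two-colour median signals got normexp (offset 50), loess (span 0.3) and Aquantile normalization; the 2 dyes of a mouse were averaged. Genes called well above background on every array of 1 exposure group or both were tested with limma 3.58.1 in R 4.3.3 (Benjamini-Hochberg over all genes tested, threshold 0.05, n = 3 mice per group), after tests on simulated data. The small number of mice, each with few arrays, limits the precision. Replicate numbers did not pair the mice on one-colour arrays, where same-number correlations ran from -0.12 to 0.28. In the two-colour sets they ran from -0.28 to 0.38, but there some same-number samples shared an array. Two-colour values were fitted without a term for the shared array. Alternatives were scaling, background correction, filters, probes, leaving out each mouse, a replicate block, 1 dye, the deposited log ratios and the source-name mice. Genes with values in every mouse were those past the threshold in any comparison, those with the smallest p over both one-colour inputs, and the gene with the lowest fold change. Insig2 and Npc1l1 were given by mouse outside this rule. The 29 genes and all lists were chosen with earlier results of these data known. Figures used matplotlib in Python.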

Additional observations from a re-analysis of the deposited data

How the results depend on the processing

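With 3 mice per group and dim archival RNA, small differences were not detectable, and each call near the threshold moved with the processing. Of 1454 values of single genes under the alternatives, 1377 kept their direction and side of the threshold, 8 lost a call, 15 gained one and 54 changed sign. Genes past the threshold numbered 0 in both one-colour sets and became 1 with normexp and quantile normalization, Sqle at 1X and Hmgcs1 at 1.5X. Over both one-colour inputs the 0 became 2 (Hmgcs1 and Sqle) with normexp, 1 (Hmgcs1) with the 75th percentile over all probes, and 0 to 1 leaving out a mouse, with Sqle called at an adjusted p of 0.0478 without phenobarbital mouse 1. On two-colour 1X arrays the 3 became 1 (Hmgcs1) in Cy3 alone and with the source-name mice. With the deposited log ratios 5 passed (Hmgcs1, Mvd, Fdft1, Msmo1 and Nsdhl). That was another test, limma on 3 mean ratios, 1 per phenobarbital mouse by the descriptions, against 0. Leaving out a mouse, numbered by the descriptions, gave 1 to 5 calls. It gave 1 without control mouse 3, and 5 without phenobarbital mouse 3, with Msmo1 and Insig2 added. Because 4 channels followed the source-name mouse, such a fit may not leave out 1 whole mouse. With the numbers as a replicate block 5 passed there (Msmo1 and Nsdhl added). The mice share only a number, though some same-number samples also shared a two-colour array. The block changed no count in the other comparisons. Of all genes on two-colour 1X arrays, 6.17% passed in the main fit, 1.32% in Cy3 alone and 1.21% with the source-name mice. That share was not counted under the other alternatives, so the counts of the 29 genes there have no background beside them. Without scaling between arrays the median log2 fold change of the 29 genes was -0.11 at 1X and -0.04 over both one-colour inputs, while that of all genes tested was -0.28 and -0.23. The two-colour 1.5X median was -0.12 for the 2 genes tested with both dyes and 0.05 in Cy3 alone. Leaving out a mouse kept Hmgcs1 at 0.92 to 1.13 over both one-colour inputs, with limma adjusted p of 0.083 to 0.151. On two-colour 1X arrays Hmgcs1 stayed at 0.96 to 1.03 with mice left out by the descriptions' numbers. The sign changes were in genes whose main log2 fold change lay between -0.14 (Srebf2 at one-colour 1.5X) and 0.29 (Insig1 at one-colour 1X). Idi1, a dim gene, had an SE of 0.62 at one-colour 1X. The cause of the sign changes was not tested apart from the shift of all genes without scaling. Without scaling they were Fdps -0.07, Tm7sf2 -0.17, Dhcr7 -0.18, Srebf2 -0.11, Insig1 -0.06, Npc1 -0.20 and Abcg5 -0.02 over both one-colour inputs; Idi1 -0.21, Nsdhl -0.18, Dhcr7 -0.13, Scap -0.24, Insig1 -0.00, Npc1 -0.14, Abcg5 -0.11 and Abcg8 -0.21 at one-colour 1X; and Insig1 -0.13 at one-colour 1.5X. Srebf2 was 0.18 at one-colour 1.5X with every probe on its own, and Insig1 was -0.00 at two-colour 1X in Cy3 alone. Leaving out a mouse gave, over both one-colour inputs, Abcg8 -0.23 to 0.08, Dhcr7 -0.12 to 0.21, Npc1 -0.13 to 0.25, Scap -0.15 to 0.01 and Tm7sf2 -0.06 to 0.17. At one-colour 1X it gave Abcg8 -0.14 to 0.27, Fdps -0.17 to 0.08, Idi1 -0.39 to 0.88, Npc1 -0.12 to 0.47, Nsdhl -0.23 to 0.45, Scap -0.05 to 0.12 and Tm7sf2 -0.29 to 0.09. At one-colour 1.5X it gave Dhcr7 -0.26 to 0.09, Insig1 -0.12 to 0.11, Npc1 -0.22 to 0.02 and Stard4 -0.14 to 0.05. At two-colour 1X, by the descriptions' numbers, it gave Insig1 -0.04 to 0.10 and Npc1 -0.02 to 0.09.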

Other observations

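On the 2 two-colour 1X arrays whose labels give each exposure opposite dyes, the deposited log2 ratio of Cy5 over Cy3 had opposite signs on arrays 4 and 8 for several of the 29 genes. Hmgcs1 had 1.07 on array 4 and -1.3 on array 8, Fdft1 had 0.83 and -1.06 with its brighter probe, Msmo1 had 0.44 and -0.83, and Lss had 0.43 and -0.98. Several others had the same sign on both arrays: Insig1 had -0.48 and -0.61, Dhcr7 -0.55 and -0.48, and Mvd -0.74 and -0.57. Ggps1 had -1.15 and -0.62 with its brighter probe. For Mvd and this probe of Ggps1, Cy5 was not well above background on either array. The authors' processed log ratios keep the sign of Cy5 over Cy3 on array 4 and reverse it on array 8. On the other two-colour arrays they reverse it where Cy5 is a control sample. The source names give Cy5 as phenobarbital on array 4 and as control on array 8, and the descriptions give the opposite. No exposure is assigned to these channels here.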
